A study of Mus musculus with 12 samples.

Results

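The unfolded protein response is the set of signals by which a cell matches the folding capacity of its endoplasmic reticulum (ER) to the load of proteins entering it. The genes described here are 10 members of this response, taken by gene symbol from a deposited table of 38283 mouse genes, and all 10 were found in 1 row each and passed the filter on low values (a mean of at least 1 FPKM over the libraries). FPKM counts the fragments of a gene scaled to transcript length and to the sequenced total. It sets levels side by side between genes and between mice, within the limits of library scale given below. RNA came from the arcuate nucleus (ARC) of the hypothalamus, cut from brain sections by laser capture, of 5 wild-type (WT) mice and 7 mice homozygous for the R299Q knock-in of *Prkag2* (Homo), which encodes the γ2 subunit of AMP-activated protein kinase (AMPK). All were freely fed C57BL/6 males, 8 weeks old, and the knock-in is present in every cell from conception, so it is not confined to any ARC cell type. Each mouse gave 1 library, and the comparison asks whether lifelong activation of γ2 AMPK is accompanied by a different level of these transcripts in the ARC.

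Neurons that make neuropeptides, such as the AGRP and POMC neurons of the ARC, send large precursor proteins through the ER and therefore depend on its chaperones. When unfolded proteins build up, 3 sensors in the ER membrane respond, namely IRE1 (*Ern1*), PERK (*Eif2ak3*) and ATF6 (*Atf6*). IRE1 cuts a short stretch out of *Xbp1* mRNA so that the active transcription factor XBP1 can be made, PERK phosphorylates eIF2α and thereby raises translation of *Atf4*, and ATF6 is cleaved in the Golgi to release a transcription factor. Their targets include the lumenal chaperones BiP (*Hspa5*) and GRP94 (*Hsp90b1*), the co-chaperone ERdj4 (*Dnajb9*), the degradation adaptor SEL1L (*Sel1l*) and the factor CHOP (*Ddit3*), which is linked to cell death under prolonged stress. Much of this signalling acts on splicing, translation and cleavage, which a gene-level value cannot show.

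Several sequences carry this regulation. The ER stress response element (ERSE), through which ATF6 and XBP1 act on chaperone genes, was searched as CCAAT, any 9 bases and CCACG on both strands of the 300 bases around each gene start (250 before to 50 after) in RefSeq promoters of GRCm38.p6. Of the 10 genes 9 had a promoter in that set, with *Atf6* the one without. The element was found in 2 of these 9, *Hspa5* and *Hsp90b1*, against 0.137% of 27025 genes, and both matches in *Hsp90b1* and the 1 in *Hspa5* are shown with 5 bases on either side and the fixed letters in capitals. The *Hspa5* match lies at chr2:34772020-34772048 on the plus strand, its element at positions -65 to -47 from the start used in the RefSeq set. Those of *Hsp90b1*, a gene on the minus strand, lie at chr10:86705633-86705661 on the minus strand (element at -212 to -194) and at chr10:86705528-86705556 on the plus strand (element at -107 to -89). The RefSeq starts differ from the GENCODE gene coordinates given below. By the GENCODE start of 34771970 the *Hspa5* element lies inside the gene. Both *Hsp90b1* elements lie before its GENCODE start at 86705509.
Hspa5 ERSE: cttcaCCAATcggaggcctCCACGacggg
Hsp90b1 ERSE, far: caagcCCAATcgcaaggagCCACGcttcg
Hsp90b1 ERSE, near: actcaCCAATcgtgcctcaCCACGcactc

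The shorter elements ATTGG, any base, CCACG (ERSE-II), TGACGTGG (the XBP1-bound UPRE) and TGATGNAAT (the CARE bound by ATF4 with C/EBP factors) were found in 0 of the 9 promoters, and in 0.0444%, 0.714% and 1.08% of all genes. No match says only that these letters do not stand in this window. The *Xbp1* stretch removed by IRE1 was located by its pair of CNGCAG cut sites 26 bases apart, at chr11:5524280-5524309 of GRCm38 on the plus strand, in coding exon 4 of 5 of transcript Xbp1-201 of GENCODE M21. The 26 bases are in capitals, with 2 bases on either side.
Xbp1 stretch: agCACTCAGACTATGTGCACCTCTGCAGca
The deposited value for *Xbp1* sums transcripts with and without these bases, so the share that IRE1 had cut was not measured here.

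For none of the 10 genes was a difference between Homo and WT detected. Of 14017 genes tested with limma on log2(FPKM + 1), 0 of the 10 members had a Benjamini-Hochberg adjusted p under 0.05, and 0 of the 10 had an unadjusted p under 0.05, against backgrounds of 0.00713% and 5.55% of all genes (3.05% higher and 2.5% lower in Homo). The smallest adjusted p among them was 0.919, for *Ddit3* and *Hspa5*. None of the 10 had WT and Homo values without overlap, which 0.221% of all genes had. Of the 10, 7 had a higher mean log2 value in Homo, where 49.3% of all genes did, and their median log2 fold change was 0.16 against -0.0062 over all genes tested. With 1 library left out this median ran from 0.070 (without WT 1) to 0.24 (without WT 5), and it was 0.092 without Homo 5. The exact permutation tests given with each gene below are two-sided, over the 792 ways to assign 5 of the 12 libraries to WT, and the smallest p they allow is 0.0013.

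**Figure D1:**
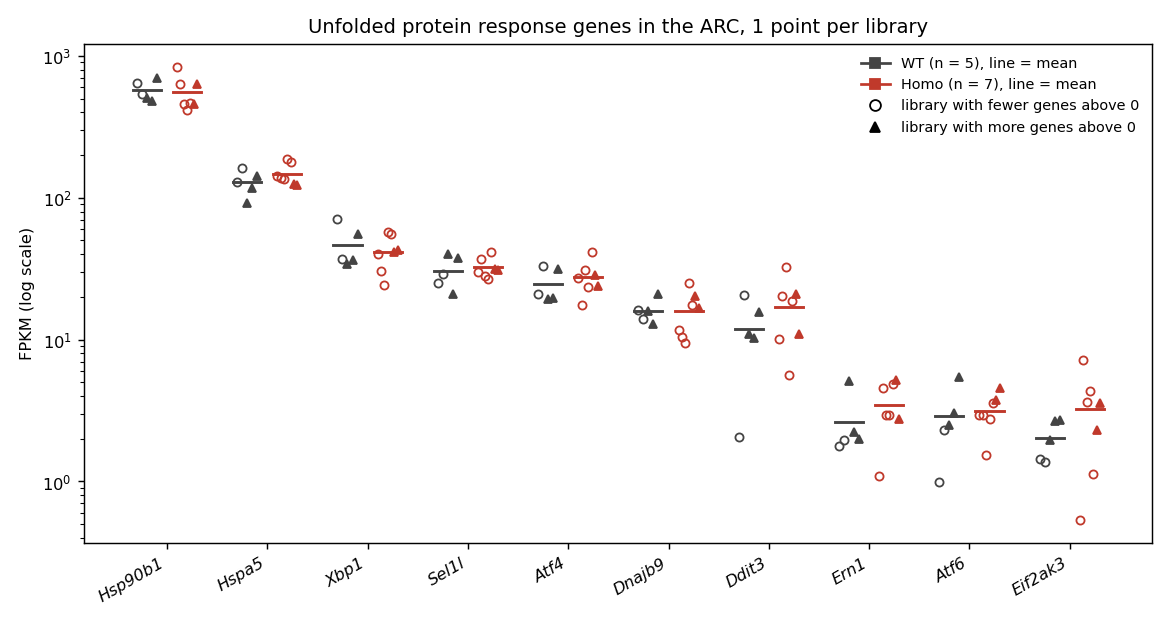
FPKM of the 10 unfolded protein response genes on a log axis, 1 point per library, WT (n = 5) in grey and Homo (n = 7) in red with the group means as lines, and the genes ordered by mean level. The genotypes overlap for every gene, levels run from a mean of 564 FPKM for *Hsp90b1* to 2.73 FPKM for *Eif2ak3*, and the widest scatter is in *Ddit3* and *Eif2ak3*.

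The 3 sensors were the lowest of the 10 genes, near the level of a few FPKM. *Ern1* (ENSMUSG00000020715, chromosome 11 of GRCm38 from 106394650 to 106487852, minus strand) was measured at 1.77, 1.95, 5.13, 2.23 and 1.99 FPKM across WT 1 to WT 5, and in Homo it ran from 1.09 FPKM (Homo 1) through a median of 2.96 to 5.20 FPKM (Homo 6). WT 3 stood well above the other WT mice and inside the upper range of Homo. The means were 2.61 ± 1.42 FPKM (SD, 5 WT mice) and 3.48 ± 1.46 FPKM (SD, 7 Homo mice), a log2 fold change of 0.30 (standard error, SE, 0.31, exact permutation p = 0.342, adjusted p = 0.923 by limma). Without WT 3 the log2 fold change was 0.51.

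*Eif2ak3* (ENSMUSG00000031668, chromosome 6 from 70844515 to 70905245, plus strand), the PERK kinase, was measured at 1.44, 1.37, 1.95, 2.65 and 2.72 FPKM across WT 1 to WT 5. In Homo its lowest, median and highest values were 0.532 FPKM (Homo 1), 3.59 FPKM and 7.19 FPKM (Homo 2). The Homo mice thus lay on both sides of WT, 4 of the 7 above the highest WT mouse, and Homo 1 and Homo 5 below the lowest. The SD was 0.643 FPKM around a mean of 2.03 in WT and 2.22 FPKM around a mean of 3.24 in Homo (log2 fold change 0.33, SE 0.37, exact permutation p = 0.429, adjusted p = 0.927 by limma). Leaving out Homo 2 gave 0.14 and leaving out Homo 1 gave 0.54, so the difference in mean hung on these extreme mice.

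*Atf6* (ENSMUSG00000026663, chromosome 1 from 170704674 to 170867771, minus strand) ran from 0.996 FPKM in WT 1 to 5.47 FPKM in WT 5, with 2.31, 2.52 and 3.06 FPKM in WT 2, WT 3 and WT 4. The 7 Homo mice lay between 1.53 and 4.57 FPKM, with a median of 2.97, entirely inside the WT range. Its log2 fold change was 0.17 (SE 0.29, exact permutation p = 0.564, adjusted p = 0.964 by limma).

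Among the transcription factors, *Xbp1* (ENSMUSG00000020484, chromosome 11 from 5520659 to 5525893, plus strand) was the most abundant. It was measured at 70.6, 37.1, 34.3, 36.5 and 55.2 FPKM across WT 1 to WT 5 and from 24.5 FPKM (Homo 3) to 57.1 FPKM (Homo 4) in Homo, with a median of 41.8. WT 1 was above every other mouse, and 0 Homo mice exceeded it. The group means of 46.7 ± 15.7 FPKM in WT and 41.7 ± 11.9 FPKM in Homo gave a log2 fold change of -0.16 (SE 0.25, exact permutation p = 0.556, adjusted p = 0.957 by limma), and without WT 1 it was 0.0052.

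*Atf4* (ENSMUSG00000042406, chromosome 15 from 80255184 to 80257541, plus strand), whose product is controlled mainly at translation, was measured at 21.1, 32.9, 19.4, 19.6 and 31.4 FPKM across WT 1 to WT 5. In Homo it ran from 17.5 FPKM (Homo 2) to 41.7 FPKM (Homo 5), with a median of 27.3. WT 2 and WT 5 lay above the other 3 WT mice, and the Homo mice spanned the whole WT range. The means of 24.9 ± 6.69 FPKM and 27.6 ± 7.62 FPKM differed by a log2 fold change of 0.14 (SE 0.22, exact permutation p = 0.519, adjusted p = 0.957 by limma), which was 0.039 without Homo 5 and 0.25 without WT 2.

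*Ddit3* (ENSMUSG00000025408, chromosome 10 from 127290774 to 127296288, plus strand), which encodes CHOP, varied most among all 12 mice, 16.0-fold between WT 1 and Homo 3. Its values were 2.04, 20.5, 11.0, 10.3 and 15.7 FPKM across WT 1 to WT 5, and in Homo they ran from 5.63 FPKM (Homo 4) through a median of 18.6 to 32.7 FPKM (Homo 3). Only 2 of the 7 Homo mice exceeded the highest WT mouse. The WT mean was 11.9 ± 6.88 FPKM against 17.0 ± 9.04 FPKM for Homo, and the log2 fold change of 0.56 on the FPKM + 1 scale was the largest among the 10 genes (SE 0.47, exact permutation p = 0.333, adjusted p = 0.919 by limma). Without WT 1 it was 0.10 and without WT 2 it was 0.81. The last exon of *Ddit3* meets the end of *Mars*, a tRNA synthetase gene on the opposite strand measured at 18.2 to 45.2 FPKM, and since the counting is not stated to use strand, reads of the shared stretch cannot be told apart. A second annotated *Ddit3* identifier lies within the gene, and *Hsp90b1* likewise overlaps *Gm15344*, at 0.913 to 8.42 FPKM.

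The lumenal chaperones were by far the most abundant members. *Hspa5* (ENSMUSG00000026864, chromosome 2 from 34771970 to 34777547, plus strand), which encodes BiP, the Hsp70 of the ER and the usual readout of this response, was measured at 130.2, 161, 92.4, 116 and 143 FPKM across WT 1 to WT 5. In Homo it ran from 122 FPKM (Homo 7) through a median of 137 to 187 FPKM (Homo 4). Only WT 3 and WT 4 lay below the whole Homo group, and only Homo 4 and Homo 5 lay above the whole WT group. The means of 129 ± 26.2 FPKM and 147 ± 25.6 FPKM gave a log2 fold change of 0.19 (SE 0.17, exact permutation p = 0.242, adjusted p = 0.919 by limma), with a 95% confidence interval from -0.18 to 0.57, that is from 0.885-fold to 1.48-fold. Without WT 3 it was 0.082.

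*Hsp90b1* (ENSMUSG00000020048, chromosome 10 from 86690209 to 86705509, minus strand), the Hsp90 of the ER, stood at the 99.2nd percentile of all genes tested by its mean of 564 FPKM. It was measured at 644, 543, 504, 481 and 697 FPKM across WT 1 to WT 5 and from 413 FPKM (Homo 4) to 840.4 FPKM (Homo 1) in Homo, with a median of 466. The spread in Homo enclosed that of WT on both sides. Its log2 fold change was -0.071 (SE 0.19, exact permutation p = 0.712, adjusted p = 0.985 by limma), with means of 574 ± 92.7 and 557 ± 153 FPKM.

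*Dnajb9* (ENSMUSG00000014905, chromosome 12 from 44205559 to 44210326, minus strand), a J-domain partner of BiP and a well-known target of XBP1, was measured at 16.2, 14.0, 16.0, 12.9 and 20.9 FPKM across WT 1 to WT 5. The Homo mice ranged more widely, from 9.48 FPKM (Homo 3) to 24.9 FPKM (Homo 4) with a median of 16.8, around nearly the same mean (16.0 ± 3.04 FPKM in WT and 15.9 ± 5.63 FPKM in Homo). The log2 fold change was -0.065 (SE 0.24, exact permutation p = 0.798, adjusted p = 0.990 by limma).

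*Sel1l* (ENSMUSG00000020964, chromosome 12 from 91806043 to 91849157, minus strand), the adaptor of the HRD1 ligase that removes misfolded proteins from the ER, was measured at 25.0, 28.8, 39.9, 21.0 and 37.8 FPKM across WT 1 to WT 5. In Homo it ran from 26.9 FPKM (Homo 4) through a median of 31.2 to 41.2 FPKM (Homo 5). WT 1 and WT 4 were lower than any Homo mouse and the other 3 were not. The means of 30.5 ± 8.13 and 32.3 ± 5.13 FPKM gave a log2 fold change of 0.10 (SE 0.19, exact permutation p = 0.554, adjusted p = 0.968 by limma).

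The data did not bound all genes equally. The 95% confidence interval of the fold change was narrowest for *Hspa5* (0.885 to 1.48), *Sel1l* (0.809 to 1.43) and *Hsp90b1* (0.716 to 1.27), and widest for *Ddit3* (0.732 to 2.98), *Eif2ak3* (0.723 to 2.17) and *Ern1* (0.783 to 1.94). A doubling of *Hspa5*, *Hsp90b1*, *Sel1l*, *Xbp1*, *Atf4* or *Dnajb9* in Homo therefore lay outside the interval, while for *Ddit3* and *Eif2ak3* it lay inside. These folds are of FPKM + 1, which understates the change of a gene near a few FPKM, so the intervals of the 3 sensors are too narrow as folds of FPKM. In bulk tissue fewer cells of a type and less RNA per cell cannot be told apart.

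**Figure D2:**
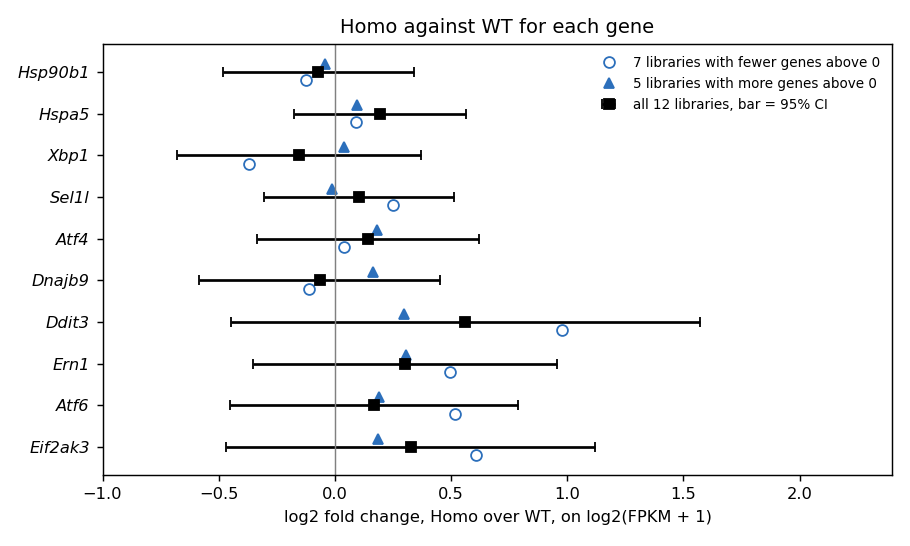
Log2 fold change of each gene, Homo over WT, on the log2(FPKM + 1) scale, with all 12 libraries as squares and 95% confidence intervals, and with the 7 libraries that list fewer genes above 0 (circles) and the 5 that list more (triangles) shown apart. Every interval holds 0, and *Ddit3* has the widest, from -0.45 to 1.57.

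The order of the FPKM levels was stable at its top over the 12 libraries. Neighbouring pairs were taken in the order of the same means. The tests measure agreement between libraries, so a bias of 1 gene shared by all of them would not show. *Hsp90b1* exceeded *Hspa5* in 12 of 12 libraries by 2.00 on the log2 scale, and *Hspa5* exceeded *Xbp1* in 12 of 12 by 1.68 (exact sign-flip permutation p = 0.000488 each, the smallest possible, adjusted p = 0.00146 over 9 neighbouring pairs). *Xbp1* lay above *Sel1l* and *Sel1l* above *Atf4* in 9 of 12 libraries each (exact permutation, adjusted p = 0.0229 and 0.033). *Atf4* lay above *Dnajb9* in 11 of 12 libraries, by 0.71 on the log2 scale (exact permutation, adjusted p = 0.0022). *Dnajb9* and *Ddit3* could not be ordered (higher in 7 of 12, exact permutation, adjusted p = 0.48), and *Ddit3* lay above *Ern1* in 12 of 12 by 1.81. Nor could the neighbouring sensors be ordered, with exact permutation adjusted p = 0.955 for *Ern1* over *Atf6* and 0.48 for *Atf6* over *Eif2ak3*. *Ern1* against *Eif2ak3* was not tested. The chaperones thus stood at 139 FPKM or more on average, the other 5 genes between 14.9 and 43.8 FPKM and the sensors between 2.73 and 3.12 FPKM.

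Variation between mice of 1 genotype also differed between the members. *Hspa5* was among the steadier genes of its level, since 86.4% of the 383 tested genes with a mean within 1.5-fold of it had a larger within-genotype SD of log2(FPKM + 1). For *Sel1l* the share was 85.9% of 1757 genes. *Ddit3* was at the other end, with a larger SD in only 12.7% of 2886 genes of its level, and *Eif2ak3* (39.7% of 2825) and *Xbp1* (49.1% of 1341) were near the middle. No mouse was high or low for all 10 genes. WT 5 was above the gene's mean over all mice for 9 of the 10 and Homo 5 for 8, whereas WT 4 was above it for 2, and WT 1 combined the highest *Xbp1* with the lowest *Ddit3* and *Atf6*.

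**Figure D3:**
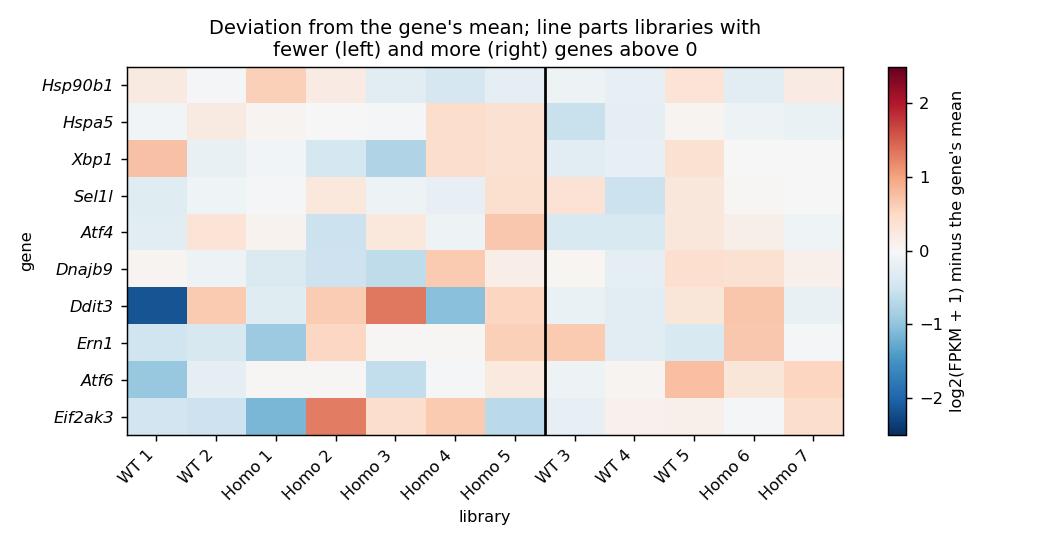
Log2(FPKM + 1) of each gene (rows, by mean level) in each library (columns) minus the gene's mean over the 12 libraries, red above and blue below it, with a line between the 7 libraries that list fewer genes above 0 and the 5 that list more. The deepest colours are single libraries of *Ddit3* and *Eif2ak3*, such as *Ddit3* at 2.04 FPKM in WT 1, and no column is of 1 colour throughout.

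Across the 12 libraries the 10 genes did not move as a block. Of their 45 pairs, 28 had a positive and 17 a negative Pearson correlation of log2(FPKM + 1), with a median of 0.13, and 0 pairs had an adjusted permutation p under 0.05 while 3 had an unadjusted p under 0.05. The pair with the smallest p was *Xbp1* with its target *Dnajb9* (Pearson r = 0.75, permutation p = 0.00528, adjusted p = 0.238 over 45 pairs; Spearman rho = 0.80, permutation p = 0.00319, adjusted p = 0.143). Both were lowest in Homo 3 and both were high in WT 5 and Homo 4. Without the 2 libraries farthest from the *Xbp1* median, WT 1 and Homo 3, r was 0.80, and within the 7 libraries that list fewer genes above 0 it was 0.82 (the other 5 are too few for a value). *Xbp1* and *Ddit3* ran in opposite directions (r = -0.70, permutation p = 0.0108, adjusted p = 0.242; rho = -0.57, permutation p = 0.0588, adjusted p = 0.712), but without the same 2 libraries r was -0.26, so this relation rests on them. *Hsp90b1* and *Ern1* had r = -0.61 (permutation p = 0.0362, adjusted p = 0.542; rho = -0.70, permutation p = 0.0146, adjusted p = 0.327), and r was -0.29 without WT 5 and Homo 1. *Atf4* with *Hspa5* had r = 0.57 (permutation p = 0.0518, adjusted p = 0.564; rho = 0.56, permutation p = 0.0633, adjusted p = 0.712), or 0.73 without WT 3 and Homo 4. All these points share the depth and dissection of their library.

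**Figure D4:**
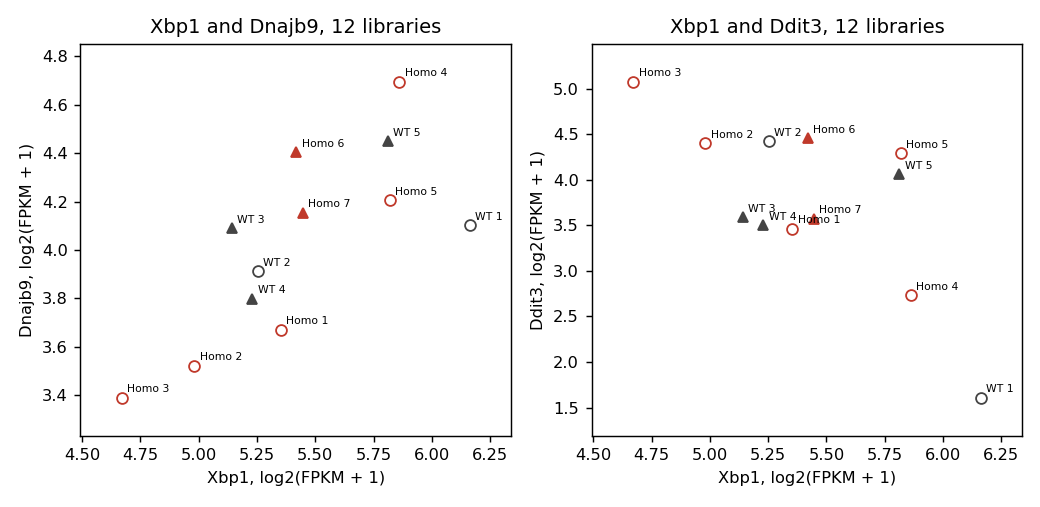
*Dnajb9* (left) and *Ddit3* (right) against *Xbp1*, each as log2(FPKM + 1), 1 point per library, WT in grey and Homo in red, with circles for the libraries that list fewer genes above 0 and triangles for those that list more. *Dnajb9* runs upward with *Xbp1* (r = 0.75), and the downward run of *Ddit3* (r = -0.70) depends on WT 1 and Homo 3.

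The genes most like *Hspa5* over the 12 libraries, among 8723 genes with a mean of at least 5 FPKM, were *Oat*, *Ric3*, *BC029722*, *Marcks* and *2610035D17Rik*, with Pearson r from 0.88 to 0.90. Those most like *Atf4* were *Pik3ip1*, *Kcne1l*, *Rhob*, *Cables2* and *2310011J03Rik*, with r from 0.85 to 0.88. None of these 10 is a member. With so many genes searched over 12 libraries, such values are given as a description only.

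No difference was detected in the wider pathway either. Of 94 genes on 4 lists, 88 were tested, 43 of them higher and 45 lower in Homo on average. The median log2 fold change was -0.0013, and 0 had a limma adjusted p under 0.05. At an unadjusted p under 0.05 there were 4 (4.55% of those tested, against 5.55% of all genes), each with a higher mean in Homo, a direction in which 3.05% of all genes had such a p. With 1 library left out, the count higher in Homo was 2 without WT 3, WT 5, Homo 1 or Homo 7. It was 3 without Homo 3 and 5 without WT 1 or WT 2. The count lower in Homo at such a p was 1 without WT 4 or Homo 1, and 2 without Homo 5. In the PERK arm and the wider integrated stress response, 0 of 21 genes had an unadjusted p under 0.05 (median 0.017). The gene with the highest level there, the asparagine synthetase *Asns*, a target of ATF4, had means of 55.9 ± 21.2 (WT) and 46.0 ± 14.5 FPKM (Homo). *Atf3*, *Trib3*, *Nupr1* and *Stc2*, which are induced under strong ER stress, were below the filter. In the list of ER-associated degradation 0 of 22 genes had an unadjusted p under 0.05 (median -0.047), and its most abundant gene, the ubiquitin-conjugating enzyme *Ube2j1*, had means of 65.2 ± 27.8 (WT) and 58.2 ± 16.8 FPKM (Homo).

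In the list of the IRE1 and XBP1 arm with the translocon, 3 of 22 genes had an unadjusted limma p under 0.05 (median 0.013). All 3 were higher in Homo, as were 3.05% of all genes at such a p. They were small subunits at the translocon, the channel through which new proteins enter the ER, and not chaperones. The list differed between the library sets described below. Within the 7 libraries 7 of the 22 genes were higher (median -0.069, against -0.096 over all genes), with 0 at such a p. Within the other 5 libraries 19 were higher (median 0.17, against 0.14), with 2 at such a p. *Sec61b* (chromosome 4 from 47474658 to 47483242, plus strand), the β subunit of the channel, was measured at 94.3, 87.0, 50.9, 80.2 and 53.4 FPKM across WT 1 to WT 5 and from 86.1 to 144 FPKM in Homo, with a median of 109.7. Of the 7 Homo mice 5 exceeded the highest WT mouse (log2 fold change 0.61, SE 0.20, exact permutation p = 0.00884, limma p = 0.00775 and 0.783 after adjustment). *Sec61g* (chromosome 11 from 16500530 to 16508484, minus strand), its γ subunit, differed by 0.54 on the log2 scale (exact permutation p = 0.0417, adjusted p = 0.887 by limma), and in it WT 4 at 81.8 FPKM and Homo 4 at 45.6 FPKM crossed over. *Ssr4* (chromosome X from 73787028 to 73790830, plus strand), the δ subunit of the translocon-associated protein complex, had 0.61 (exact permutation p = 0.0177, adjusted p = 0.832 by limma), and 0.40 without WT 3. *Sec61b* and *Ssr4* kept an unadjusted limma p under 0.05 whichever 1 library was left out, and *Sec61g* did not without WT 2, WT 3, WT 5, Homo 1, Homo 3 or Homo 7. Within the 7 libraries that list fewer genes above 0 and within the other 5, the log2 fold changes were 0.33 and 0.68 for *Sec61b*, 0.56 and 0.56 for *Sec61g* and 0.38 and 0.79 for *Ssr4*. The signal peptidase subunit *Spcs1*, the most abundant gene of this list, had means of 89.5 ± 44.7 (WT) and 115 ± 26.5 FPKM (Homo) (exact permutation p = 0.170), but its log2 fold changes within those 7 and 5 libraries were -0.23 and 0.89.

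In the list of the ATF6 arm and ER folding, 1 of 23 genes had an unadjusted p under 0.05 (median -0.092). It was *Sil1*, the nucleotide exchange factor of BiP, at 10.9, 11.7, 8.37, 12.3 and 8.91 FPKM across WT 1 to WT 5 and from 10.9 to 22.0 FPKM in Homo (median 13.2). All 7 Homo mice were above the WT median and 5 above the highest WT mouse (log2 fold change 0.49, SE 0.21, exact permutation p = 0.0265, adjusted p = 0.899 by limma). Its unadjusted limma p was no longer under 0.05 without WT 3, WT 5, Homo 1 or Homo 7, nor within either set of libraries described below, so the list then held 0 such genes. The prolyl isomerase *Fkbp2*, the most abundant gene there, had means of 270 ± 105 (WT) and 261 ± 47.2 FPKM (Homo).

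**Figure D5:**
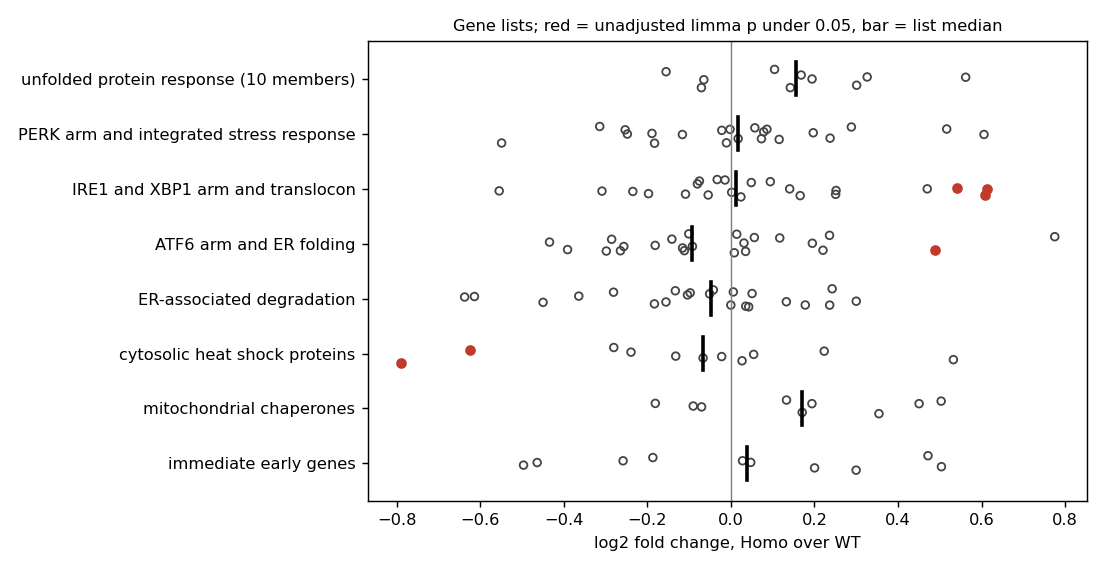
Log2 fold changes, Homo over WT, of the genes tested on each list, 1 point per gene, red where the unadjusted limma p is under 0.05, with the list's median as a bar. The medians lie between -0.092 and 0.17, and the red points are *Sec61b*, *Ssr4*, *Sec61g* and *Sil1* on the right and *Hsph1* and *Hsf1* on the left.

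Stress proteins of other compartments were set beside these genes. Of 11 genes of the cytosolic heat shock response, 2 had an unadjusted p under 0.05, both lower in Homo, *Hsph1*, an Hsp110 chaperone, and *Hsf1*, the master regulator of that response (median of the list -0.067). Of all genes 2.5% had such a p and were lower in Homo. This count of 2 lower genes was 0 without WT 3 or without WT 5. It was 1 without WT 1, WT 2, Homo 1, Homo 2 or Homo 5 and with the library set as a covariate. The count higher in Homo at such a p was 1 without WT 1, with upper-quartile scaling and within the 5 libraries that list more genes above 0. *Hsph1* had means of 180 ± 56.9 (WT) and 115 ± 28.2 FPKM (Homo) (log2 fold change -0.63, exact permutation p = 0.0341, adjusted p = 0.856 by limma). Within the same 7 and 5 libraries it was -0.52 and -0.62. Of 9 mitochondrial chaperones and proteases 0 had an unadjusted p under 0.05 (median 0.17), the smallest being that of the protease *Clpp* (log2 fold change 0.50, exact permutation p = 0.0556). Without WT 3 the median was 0.041 and *Clpp* 0.26, and without WT 2 they were 0.36 and 0.61. The count of 0 became 1, higher in Homo, without WT 2, WT 4 or Homo 3. It was also 1 with upper-quartile scaling, with quantile normalization and within the 5 libraries. Of 10 immediate early genes tested 0 had an unadjusted p under 0.05, or 1, lower in Homo, without Homo 6 and within the 7 libraries. The list's median was 0.037, and the smallest p was that of *Jun* (log2 fold change -0.50, exact permutation p = 0.138). This median took either sign, from -0.21 without Homo 6 to 0.18 without Homo 2, and *Jun* differed by -1.03 within the 7 libraries and 0.24 within the 5, and by -0.31 without WT 2.

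The libraries differed in ways that touch these values. Ranked by how many genes they list above 0, they parted into 2 sets at the widest gap, with 15742 to 16467 genes in 7 libraries (WT 1, WT 2 and Homo 1 to 5) and 18141 to 18635 in 5 (WT 3 to 5, Homo 6 and Homo 7), a split that neither the labels nor the methods name as a batch, though the titles of Homo 6 and Homo 7 are worded unlike those of the other 5 Homo mice. Nor did the libraries share 1 scale. In each, 10 genes held 95.9% to 98.1% of the summed FPKM, with the highest share in WT 3. The upper quartile of the tested genes ran from 14.8 FPKM (Homo 3) and 15.0 FPKM (WT 3) to 19.5 FPKM (WT 1). With upper-quartile scaling the members' median log2 fold change was 0.16, and 0 of the 10 had an unadjusted limma p under 0.05. Among the members, *Atf6* averaged 2.44 ± 0.895 FPKM in the 7 and 3.88 ± 1.18 FPKM in the 5 (limma, set as a term beside genotype, 0.64 on the log2 scale, unadjusted p = 0.0301, adjusted p = 0.530), and *Hspa5* averaged 153 ± 22.6 and 120 ± 18.3 FPKM (-0.32, limma unadjusted p = 0.0705). Over all genes 8.42% had an unadjusted p under 0.05 for the set. With a term for the set the genotype difference was 0.37 for *Atf6*, 0.67 for *Ddit3* and 0.093 for *Hspa5*, with exact permutation p = 0.114, 0.286 and 0.514 over 210 rearrangements within sets, where the smallest possible p is 0.0048. Within the 7 and the 5 libraries *Ddit3* differed by 0.98 and 0.30, *Atf6* by 0.52 and 0.19, *Eif2ak3* by 0.61 and 0.18 and *Xbp1* by -0.37 and 0.038 on the log2 scale. The median over all genes tested was -0.096 within the 7 and 0.14 within the 5.

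The dissection was checked by markers. *Agrp*, *Npy* and *Pomc* were measured in every library, at 181 FPKM or more. *Nr5a1*, *Sim1*, *Fezf1*, *Crh* and *Pmch* of neighbouring nuclei averaged under 1 FPKM. With *Avp* and *Oxt* the markers of those nuclei summed to 10.1 to 1030 FPKM in WT and 16.2 to 578.5 FPKM in Homo. All 4 of these markers that were tested were higher in Homo on average, as were 49.3% of all genes. Their median log2 fold change was 0.79, or 0.47 without Homo 2 and 1.30 without WT 5. Of the 4, 0 had an unadjusted limma p under 0.05, and 0 or 1 with 1 library left out. *Prkag2* had means of 14.6 ± 5.43 (WT) and 14.8 ± 4.88 FPKM (Homo), which does not check the genotype, since the knock-in changes 1 residue and not the level. All 8 microglial markers were higher in Homo on average, as were 49.3% of all genes, and 3 of the 8 were so with an unadjusted limma p under 0.05, as were 3.05% of all genes (1 to 4 of the 8 with 1 library left out), with a summed level of 64.9 to 110 FPKM in WT and 96.2 to 164 FPKM in Homo. All 8 oligodendrocyte markers were likewise higher on average, with 0 of 8 at an unadjusted p under 0.05 and sums of 94.0 to 562 FPKM in WT and 163 to 413 FPKM in Homo. That count was 3 without WT 5 and 1 without Homo 3. Without WT 4, 6 of the 8 were higher, and their median log2 fold change was 0.15 against 0.47 over all libraries. The sums of neuronal (725 to 1026 and 730 to 1116 FPKM) and astrocyte markers (501 to 931 and 672 to 799 FPKM) overlapped. Of 10 arcuate neuropeptides and markers of their neurons, 8 were higher in Homo on average, 2 of them with an unadjusted limma p under 0.05 (*Agrp* and *Npy*), as were 3.05% of all genes. This count of 2 was 0 without WT 3, Homo 2, Homo 4 or Homo 5, each left out alone, and 3 without WT 2. Without WT 3, *Sst* was lower in Homo with such a p. The sums of the 10 lay between 2027 and 6544 FPKM in WT and between 4754 and 6614 FPKM in Homo. Their median log2 fold change was 0.42 over all libraries, 0.15 without WT 3, -0.29 within the 7 libraries and 0.47 within the 5. The median over all genes was -0.096 within the 7 and 0.14 within the 5. Within the 7 libraries 2 of the 10 were lower and 0 higher in Homo with an unadjusted limma p under 0.05. Within the 5, 1 was higher and 0 lower with such a p, and with the library set as a covariate 0 had one. Of 9 tanycyte and ependymal markers tested, 7 were lower in Homo on average (median -0.24), where 49.3% of all genes were higher. The sums were 31.9 to 149 FPKM in WT and 25.5 to 74.7 FPKM in Homo. Only 1 of the 9 was lower with an unadjusted limma p under 0.05, as were 2.5% of all genes. With 1 library left out this count ran from 0 (without WT 2) to 3 (without WT 1). The median was -0.069 with the library set as a covariate. All 3 blood transcripts were lower in Homo on average (sums of 10.8 to 186 and 5.03 to 103 FPKM), where 49.3% of all genes were higher. Both pituitary transcripts tested were also lower (sums of 0 to 117 and 0 to 56.5 FPKM), with 0 on either list at an unadjusted p under 0.05. These directions changed with the library set. The median log2 fold change of the blood transcripts was -0.47, or -0.075 with the set as a covariate. It was 0.38 within the 7 libraries and -0.45 within the 5. The pituitary median was -1.14, and -1.65 within the 5, while the 1 transcript tested within the 7 had 0.90. The part of these cell types and tissues in the levels of the 10 genes was not tested.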

How the data were processed

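Per the labels, RNA from laser-captured ARC of 5 WT and 7 Homo mice was amplified (NuGEN), sonicated, and sequenced as 1 bar-coded library per mouse. The authors deposited 1 table of FPKM values. The submitters' processing notes name TopHat2 2.0.8, Cufflinks 2.2.1 and GRCm38, and any further scaling is not given in the sources used here. All 12 value columns were matched to mice by name (2 Homo columns carry an extra letter) and 0 were left over.

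Since FPKM is no count, count models were not used. Low values were examined for steps of 1 fragment in single-transcript genes. Between 18.3% and 59.8% of the values per library fell within 0.1 step of a whole number, where 20% would by chance, so fragment counts were not recovered and depth is unknown. Spearman correlations between libraries ran from 0.762 to 0.854 and no pair was identical. Whether mice were littermates is not stated, and p-values measure the spread between these mice.

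The scale was log2(FPKM + 1), which understates changes of low genes, for 14017 genes with a mean of at least 1 FPKM. Genotypes were compared with limma 3.58.1 in R 4.3.3 (trend and robust variances, Benjamini-Hochberg adjustment over all genes) and single genes also by exact permutation. The scripts were tested on simulated data. Correlations used 100000 permutations. One gene was called over all genes, *Jarid2*, no member and named only because it is the one, listed at 0 in every Homo library.

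The members and lists were chosen with earlier results of these data known. Named genes are the members, the most abundant gene of each pathway list, those with an unadjusted p under 0.05 there (at most 5) or no overlap, the gene with the smallest p of each comparison list, and the 5 genes most like *Hspa5* and *Atf4*. *Hsf1*, *Mars* and *Gm15344* were added with their values known. Coordinates come from GENCODE M21, which held 97.5% of the tested identifiers, and promoter sequences are from RefSeq on GRCm38.p6. Replicate numbers do not pair the mice: deviations of same-numbered WT and Homo libraries correlated between -0.0228 and 0.0288. Alternatives were other pseudocounts, filters, scalings, variance settings, array weights, the library set, each library left out and a replicate block.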

Additional observations from a re-analysis of the deposited data

Results flagged for a closer look

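*Ern1* in WT 3 stood apart from the other WT mice, at 5.13 FPKM against 2.23 FPKM in the next highest, a gap of 0.865 of the WT range where 0.710 is the critical value of Dixon's test for 5 samples. It was the only one flagged of 42 groups of mice examined over the named genes, and chance flags about 1 in 20.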

How the results depend on the processing

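Across 25 alternatives, 0 of the 10 members reached an adjusted p under 0.05 in limma (smallest 0.802) or an unadjusted p under 0.05 (smallest 0.101). Their median log2 fold change of 0.16 stayed above 0 but moved with single libraries, from 0.070 without WT 1 and 0.092 without Homo 5 to 0.24 without WT 5. Of 250 values for single members, 238 kept their direction. Many of these could not turn. The other filters, the other variance setting and the summed identifiers leave a member's log2 fold change unchanged by construction. The replicate block and the same 10 libraries without it also share their estimates. *Dnajb9* turned to 0.076 with array weights, 0.016 with the library set as a covariate and 0.17 in the 5 libraries with more genes above 0, where *Xbp1* turned to 0.038 and *Sel1l* to -0.014. With 1 library left out, the log2 fold change ranged from -0.25 to 0.0052 for *Xbp1*, from -0.045 to 0.38 for *Atf6*, from -0.016 to 0.21 for *Sel1l*, from -0.18 to 0.0027 for *Hsp90b1* from -0.18 to 0.038 for *Dnajb9* and, with no turn in sign, from 0.039 to 0.25 for *Atf4*, and the cause was not tested.

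Over all genes the count called was 1, and 1 to 3 with 1 library left out (3 without WT 2, 2 without Homo 4). Within the set of 7 libraries that list fewer genes it was 5, and within the set of 5 it was 19, each fit having fewer samples. With the replicate number as a block it was 2 genes, and 4 in the same 10 libraries without the block, an alternative chosen after seeing the data. The members' count was 0 with and without the block. The median of the immediate early genes was 0.24 with the library set as a covariate, against 0.037. The lists were refitted with each library left out after seeing the data. No member has a repeated symbol, so summing identifiers changed no member's value. Depth is unknown, and low genes such as *Ern1*, *Atf6* and *Eif2ak3* have wide intervals.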
